A study of Rattus norvegicus with 27 samples.

Results

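Rab, Arf and Arl proteins are small GTPases that act as switches of membrane traffic: bound to GTP they sit on a membrane and recruit tethers, coats and motors, and bound to GDP they are taken off it. Rab proteins mark the identity of organelles and vesicles, Arf proteins assemble coats on the Golgi and remodel the plasma membrane, and Arl proteins are relatives with roles that include tethering at the Golgi and microtubule assembly. A motor neuron depends on this machinery to send membrane and receptors along its axon, to release and recover transmitter vesicles, and to sort what it takes up at synapses.

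The genes were taken by symbol from the array platform's annotation: Rab followed by a digit, Arf1 to Arf6, and Arl followed by a digit. The rule found 66 of the 9769 genes measured by a probe set with a single symbol, with 89 probe sets, and each gene was represented by its brightest probe set. Of these, 53 were GTPases (41 Rab, 6 Arf and 6 Arl genes) and 13 encoded partner proteins whose symbols share the same start, such as Rab11fip2. A further 2 probe sets named Rab1a and Rab1b together and were left out.

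Each sample held tail motor neurons, marked by the retrograde tracer Fluorogold and cut by laser from the sacral cord of adult male Wistar rats. Spi-21 (8 arrays) and Spi-60 (8 arrays) came from rats 21 and 60 days after the cord was cut through at S2 with a small piece removed, and ShamC-21 (6 arrays) and ShamC-60 (5 arrays) from rats at the same days after a sham operation that opened the vertebrae and left the dura whole. All rats received buprenorphine after surgery and tracer injections 5 to 7 days before tissue was taken. Samples pooled 100 to 200 neurons by their labels and 50 to 200 by the design text, no label names the animal or batch behind a sample, and the p-values measure only the spread between these samples. Values are log2 signals, ± after a difference is its standard error, and a gene passed where its limma p, adjusted by Benjamini-Hochberg over 12913 probe sets, was under 0.05. In pools of dissected cells, fewer cells of a type and less RNA per cell cannot be told apart.

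The neurofilament Nefh (13.17 to 14.53 over all arrays) and peripherin (Prph, 12.78 to 13.50 outside ShamC-60) were bright, while the defining factor Isl1 lay around or below the array medians (5.73 to 6.44, against medians of 6.31 to 6.41). ShamC-60 replicate 4 stood apart, with a motor neuron marker mean of 8.74 against 10.15 to 10.36 in the other ShamC-60 arrays and a Prph signal of 9.78. Glial markers were present, with Gfap between 8.79 and 12.27, and the astrocyte marker mean was 8.14 to 8.98 in Spi-21 and 7.58 to 8.83 in ShamC-21 arrays. None of the 7 marker means passed an exact permutation test at either day after adjustment, but single markers passed in limma. At 21 and 60 days, 2 and 5 of 13 motor neuron, 4 and 2 of 13 astrocyte, 3 and 1 of 13 microglial and 2 and 1 of 12 oligodendrocyte markers were higher. Of all genes, 11.1% and 10.7% were higher. At 60 days 1 astrocyte marker was lower. Of 10 interneuron markers 1 was lower at 21 days. Of 6 blood markers 1 was higher at 21 days and 1 lower at 60 days. The motor neuron marker Slc18a3 lay at 7.63 to 8.88 in Spi-60 and 5.43 to 7.25 in ShamC-60 arrays. With the glial marker mean as a covariate 19 of 21 calls passed at 21 days (all but Rab3c and Rab3d) and 15 of 15 at 60 days, with median ratios of 1.05 and 1.01 to the differences without it. The beta-actin 3' minus 5' difference, a sign of transcript shortening, was 2.86 to 3.60 in Spi-21 and 1.97 to 2.65 in ShamC-21 arrays (exact permutation, adjusted p = 0.00599 over 18 tests), and 2.75 to 3.77 in Spi-60 and 1.92 to 2.42 in ShamC-60 arrays (adjusted p = 0.00699). Its ranges did not overlap at either day, so it and the operation cannot be told apart. With it as a covariate 2 of 21 calls passed at 21 days (Arf2 and Arl9) and 0 of 15 at 60 days. The differences stayed in the same direction, with a median ratio to those without the covariate of 1.11 at 21 days and 0.985 at 60 days. The ratios of single genes spread widely, from 0.416 to 1.709 at 21 days and from 0.488 to 1.504 at 60 days. The part of transcript shortening in these differences was not tested. For GAPDH the 3' minus 5' difference was 2.57 to 3.47 in Spi-21 replicates 1 to 4 and 0.98 to 1.46 in replicates 5 to 8. In ShamC-21 arrays it was 2.65 to 3.26. Transected minus sham arrays differed by −0.84 at 21 days (exact permutation, adjusted p = 0.163), opposite in sign to beta-actin. At 60 days they differed by 0.81 (exact permutation, adjusted p = 0.0186). ShamC-60 replicate 1 had the highest oligodendrocyte, astrocyte and blood marker means of all arrays (8.68, 9.55 and 8.04). Fits were therefore repeated without ShamC-60 replicate 4, without it and replicate 1, and for either set of 4 Spi-21 arrays, and their values stand beside the calls they ended.

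At 21 days after transection 9 of the 53 GTPase genes were higher and 12 lower than after sham surgery, and at 60 days 7 were higher and 8 lower. Of all genes, 11.1% were higher and 11.5% lower at 21 days (22.6% either way), and 10.7% were higher and 9.44% lower at 60 days (20.1% either way). The GTPases therefore passed in 39.6% at 21 days and 28.3% at 60 days, and their median difference was −0.05 at 21 days (0.009 over all genes) and 0.06 at 60 days (0.022 over all genes). They were also brighter than all genes (median signal 7.13 against 6.55, and 7.90 for those lower at 21 days), and shares among genes of like signal were not tested. Within each trafficking step, members that passed stood beside members that did not. The steps hold few genes, so nothing is read about a step from its counts. The genes Arf5, Arl2, Rab14, Rab1b and Rab4b were higher at both days, and Arf2, Rab21, Rab33a, Rab3d, Rab5a and Rab9a were lower at both days. No gene passed in opposite directions, and 28 passed at neither day. Without Spi-21 replicates 1 to 4, 9 of the 21 calls of day 21 passed, and without replicates 5 to 8, 16 passed. Without ShamC-60 replicate 4, 10 of the 15 calls of day 60 passed, and without replicates 1 and 4, 8 passed, with all differences in the same direction in each case.

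**Figure D1:**
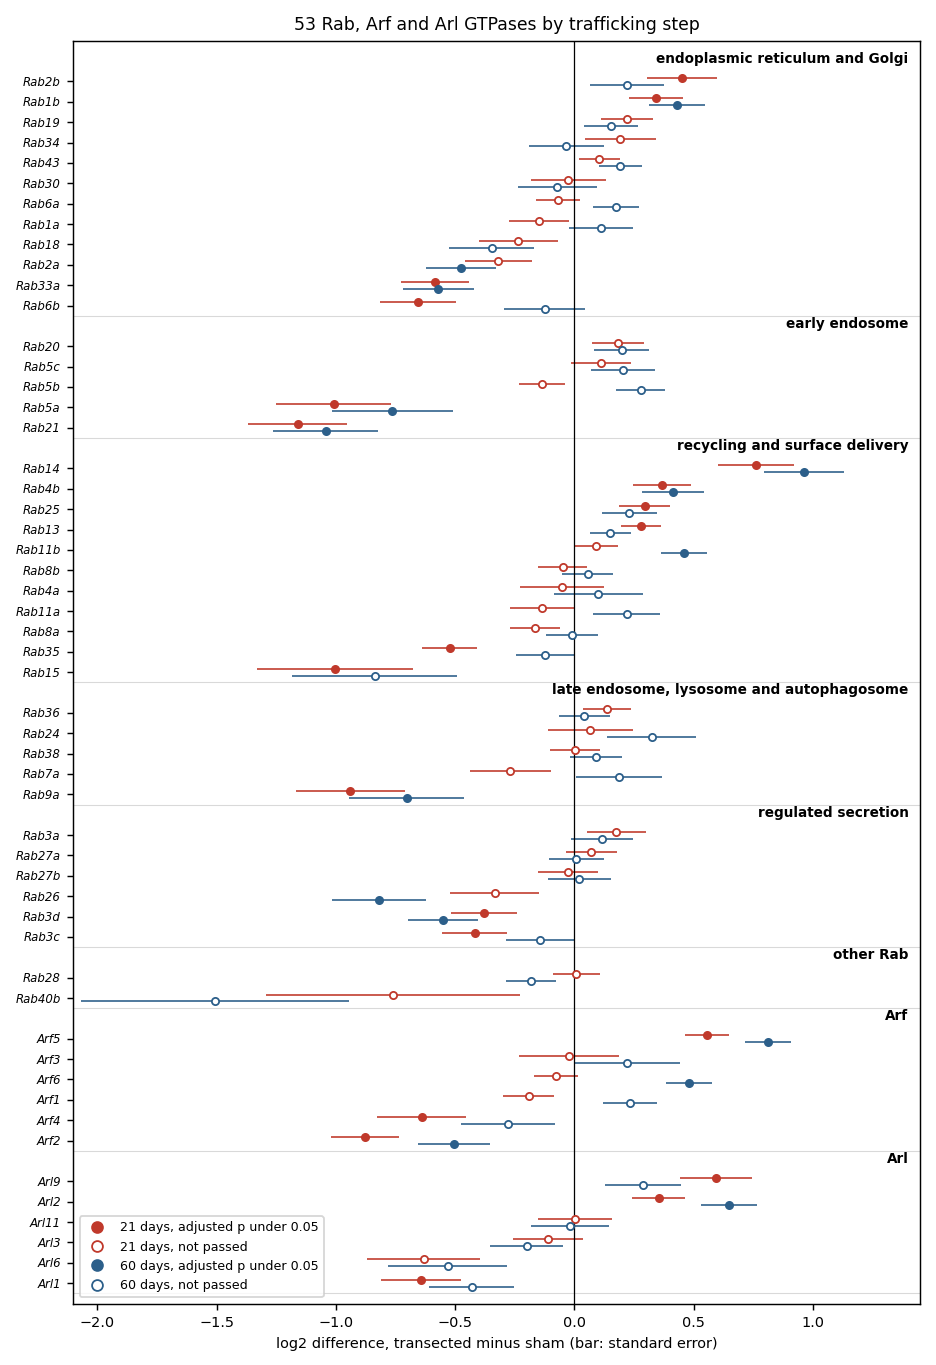
Log2 difference of transected minus sham arrays for the 53 GTPase genes, grouped by trafficking step, at 21 days (red) and 60 days (blue). Points are limma differences with standard errors and filled points passed (9 higher and 12 lower at 21 days, 7 higher and 8 lower at 60 days). Members of one step lie on both sides of 0, with Rab21 and Rab5a far to the left of the other early endosome genes and Rab14 far to the right among the recycling genes.

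RefSeq promoters of the GRCr8 rat build (250 bases before to 50 after the start site) matched 43 of the 53 GTPases by symbol, all with the same gene identifier as the array annotation. The letters CACGTG, the palindromic E-box core, stood in 5 of the 43 (11.6%, against 8.86% of the 8069 measured genes with a promoter in the table). The 5 were Arf5, Arl2, Rab20, Rab21 and Rab5a. Arf5 and Arl2 rose and Rab21 and Rab5a fell at both days, so the motif stood before genes of either direction. Their promoters are shown, as examples picked after the differences were seen, 5′ to 3′ in lower case with the motif in capitals, at chr4:58003721-58004020 (+ strand, Arf5), chr1:212875317-212875616 (− strand, Arl2), chr7:52814894-52815193 (− strand, Rab21) and chr9:6720877-6721176 (+ strand, Rab5a).
Arf5: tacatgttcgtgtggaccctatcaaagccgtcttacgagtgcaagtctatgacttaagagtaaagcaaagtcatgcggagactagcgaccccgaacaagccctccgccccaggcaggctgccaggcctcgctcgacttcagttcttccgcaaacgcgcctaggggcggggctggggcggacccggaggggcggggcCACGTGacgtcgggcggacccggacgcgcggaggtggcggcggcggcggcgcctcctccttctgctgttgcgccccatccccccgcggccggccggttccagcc
Arl2: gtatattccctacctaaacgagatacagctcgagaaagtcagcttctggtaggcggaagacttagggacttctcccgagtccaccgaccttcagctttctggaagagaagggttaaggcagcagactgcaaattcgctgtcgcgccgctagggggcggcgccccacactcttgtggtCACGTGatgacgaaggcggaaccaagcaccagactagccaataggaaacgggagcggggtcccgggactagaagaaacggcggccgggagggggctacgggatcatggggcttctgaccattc
Rab21: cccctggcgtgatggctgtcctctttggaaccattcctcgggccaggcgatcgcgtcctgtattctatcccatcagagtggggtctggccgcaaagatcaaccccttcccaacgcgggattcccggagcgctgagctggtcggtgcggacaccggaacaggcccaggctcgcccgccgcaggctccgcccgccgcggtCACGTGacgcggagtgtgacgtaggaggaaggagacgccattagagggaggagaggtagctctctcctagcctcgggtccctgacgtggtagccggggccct
Rab5a: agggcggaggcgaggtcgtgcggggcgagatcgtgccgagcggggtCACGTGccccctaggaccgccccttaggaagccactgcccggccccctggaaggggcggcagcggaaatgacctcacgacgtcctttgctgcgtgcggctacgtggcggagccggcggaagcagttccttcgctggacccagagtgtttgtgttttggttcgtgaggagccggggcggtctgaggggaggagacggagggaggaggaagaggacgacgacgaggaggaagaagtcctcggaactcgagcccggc
The first letter of the motif lay at −54 from the start site in Arf5, −73 in Arl2, −52 in Rab21 and −204 in Rab5a. The GC box GGGCGG, searched like the other motifs on both strands, stood in 35 of the 43 (81.4%, against 57.4% of measured genes), and TATAAA in 0 (0%, against 8.85%). CCAAT stood in 16 (37.2%, against 37.7%) and TGACGTCA in 1 (Rab25). The median GC content was 63% in the GTPase promoters and 59.7% over the measured genes. The motifs were chosen after the differences had been seen, neighbouring matches can share letters, and a match describes the letters only.

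Of the 5 early endosome genes, 2 fell and 3 did not pass at either day (40% lower, against 11.5% of all genes at 21 days and 9.44% at 60 days). Rab21, which moves integrins through early endosomes, had a signal of 6.46, 7.06 and 7.65 (lowest, median and highest) in Spi-21 arrays, against 7.85, 8.26 and 8.53 in ShamC-21 arrays. The groups did not overlap, which in the lower direction held for 2.3% of all genes. Rab21 fell by 1.16 ± 0.208, or 2.24-fold (limma adjusted p = 0.000428). At 60 days it lay at 6.54, 7.37 and 7.90 in Spi-60 arrays, against 8.72, 8.11, 8.11, 8.88 and 7.68 in ShamC-60 arrays, and fell by 1.04 ± 0.22 (adjusted p = 0.00162). There 6 of 8 transected arrays lay below every sham array, and without ShamC-60 replicates 1 and 4 the difference was −0.71 (adjusted p = 0.0757).

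Rab5a, the GTPase that drives fusion of early endosomes, lay at 7.35, 8.37 and 8.84 in Spi-21 arrays, against 8.65, 9.25 and 9.57 in ShamC-21 arrays. All 8 transected arrays lay below the sham mean and 6 lay below every sham array. The gene fell by 1.01 ± 0.242, or 2.01-fold (limma adjusted p = 0.0044), with a difference of −0.67 in Spi-21 replicates 5 to 8 (adjusted p = 0.106) and −1.35 in replicates 1 to 4 (adjusted p = 0.0012). At 60 days the signals were 7.52, 8.59 and 8.91 in Spi-60 arrays, against 9.88, 8.76, 9.01, 9.63 and 8.56 in ShamC-60 arrays. The ranges overlapped, with ShamC-60 replicates 1 and 4 highest, and the difference was −0.76 ± 0.255 (adjusted p = 0.0354). It was −0.37 without those 2 arrays (adjusted p = 0.478), and the call also ended without Spi-60 replicate 1, 2 or 5 or without ShamC-60 replicate 1 or 4 alone (−0.92 to −0.58 over the 27 fits that each left out 1 array). A second and dimmer Rab5a probe set (mean 5.26, against 8.68) did not pass at 21 days (−0.11, limma adjusted p = 0.52) or at 60 days (−0.29, adjusted p = 0.103). The paralogs Rab5b (−0.14 at 21 days, 0.28 at 60 days) and Rab5c (0.11 and 0.21) and the phagosomal Rab20 (0.18 and 0.20) did not pass.

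Among the 11 genes of recycling and delivery to the surface, 4 were higher and 2 lower at 21 days (36.4% and 18.2%, against 11.1% and 11.5% of all genes). At 60 days 3 were higher and 0 lower (27.3% and 0%, against 10.7% and 9.44%). Rab14, which works between the Golgi and endosomes, showed the highest difference of all GTPases at both days. Its signal was 8.03, 8.55 and 8.89 in Spi-21 arrays, against 7.38, 7.79 and 8.01 in ShamC-21 arrays, and 7.85, 8.32 and 8.71 in Spi-60 arrays, against 7.51, 7.66, 7.14, 6.85 and 7.67 in ShamC-60 arrays. The groups overlapped at neither day, as held for 3.17% of all genes in the higher direction at 21 days and 5.11% at 60 days. Rab14 rose by 0.76 ± 0.159 at 21 days (1.69-fold, limma adjusted p = 0.00162) and 0.96 ± 0.168 at 60 days (1.95-fold, adjusted p = 0.00028). Leaving out any 1 array, either set of Spi-21 arrays or ShamC-60 replicates 1 and 4 kept both calls. The beta-actin covariate ended both, with differences of 0.77 at 21 days (limma adjusted p = 0.103) and 0.97 at 60 days (adjusted p = 0.0924).

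Rab4b, a GTPase of fast recycling, rose by 0.37 ± 0.123 at 21 days (limma adjusted p = 0.0316) and 0.41 ± 0.13 at 60 days (adjusted p = 0.0258). It lay at 6.13, 6.42 and 6.94 in Spi-21 arrays, against 5.92, 5.96 and 6.43 in ShamC-21 arrays, and at 6.31, 6.49 and 6.74 in Spi-60 arrays, against 5.75, 6.33, 6.33, 5.87 and 6.22 in ShamC-60 arrays. The groups overlapped at both days. The call of day 21 ended in 7 of 27 fits that left out 1 array (Spi-21 replicates 1, 2 and 3, ShamC-21 replicates 1, 2, 5 and 6, with differences of 0.30 to 0.44 over the 27), and that of day 60 without ShamC-60 replicate 1 or 4 (0.33 to 0.47). Without Spi-21 replicates 1 to 4 the 21-day difference was 0.15 (adjusted p = 0.458), and without ShamC-60 replicates 1 and 4 the 60-day difference was 0.22 (adjusted p = 0.4). Its paralog Rab4a had differences of −0.05 and 0.10, which did not pass.

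Rab11b, a GTPase of the recycling endosome, passed at 60 days only. It lay at 10.04, 10.29 and 10.35 in Spi-60 arrays, against 9.81, 9.91, 9.73, 9.66 and 9.85 in ShamC-60 arrays, with no overlap. The difference was 0.46 ± 0.0968 (1.38-fold, limma adjusted p = 0.00162), against 0.09 ± 0.0917 at 21 days (adjusted p = 0.497). A second and dimmer Rab11b probe set did not pass at 60 days (0.0986, limma adjusted p = 0.675) or at 21 days (0.106, adjusted p = 0.614). The 60-day call thus rests on the brightest probe set. The more widely studied Rab11a had 10.43, 10.66 and 11.13 in Spi-21 arrays, against 10.60, 10.84 and 11.07 in ShamC-21 arrays, and did not pass at either day (−0.13 and 0.22, with adjusted p = 0.496 and 0.284).

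The remaining recycling genes that passed did so at 21 days. Rab35, which acts in recycling and neurite outgrowth, lay at 6.53, 6.78 and 7.27 in Spi-21 arrays, against 7.09, 7.24 and 7.83 in ShamC-21 arrays. Of the transected arrays 7 of 8 lay below every sham array, and the difference was −0.52 ± 0.116 (limma adjusted p = 0.00249). Without Spi-21 replicates 1 to 4 it was −0.39 (adjusted p = 0.0677), and at 60 days it was −0.12. Rab15, an endocytic GTPase enriched in neurons, had a difference of −1.0 ± 0.328 (2.01-fold lower, adjusted p = 0.0284), with wide and overlapping ranges of 6.11 to 8.26 in Spi-21 and 7.04 to 8.89 in ShamC-21 arrays. That call ended without Spi-21 replicate 5 or without ShamC-21 replicate 1, 4 or 6 (−1.20 to −0.83 over the 27 fits) and without Spi-21 replicates 5 to 8 (−0.62, adjusted p = 0.234), and both dimmer Rab15 probe sets had positive differences that did not pass (0.10 and 0.20). Rab13, linked to cell junctions, rose by 0.28 ± 0.0829 (adjusted p = 0.0172), with all 8 transected arrays above every sham array, and had a difference of 0.29 without Spi-21 replicates 1 to 4 (adjusted p = 0.0595). Rab25, a Rab11 relative known from epithelia, rose by 0.29 ± 0.108 (adjusted p = 0.0495), a call that ended in 18 of the 27 fits (0.23 to 0.34) and without Spi-21 replicates 1 to 4 (0.19).

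**Figure D2:**
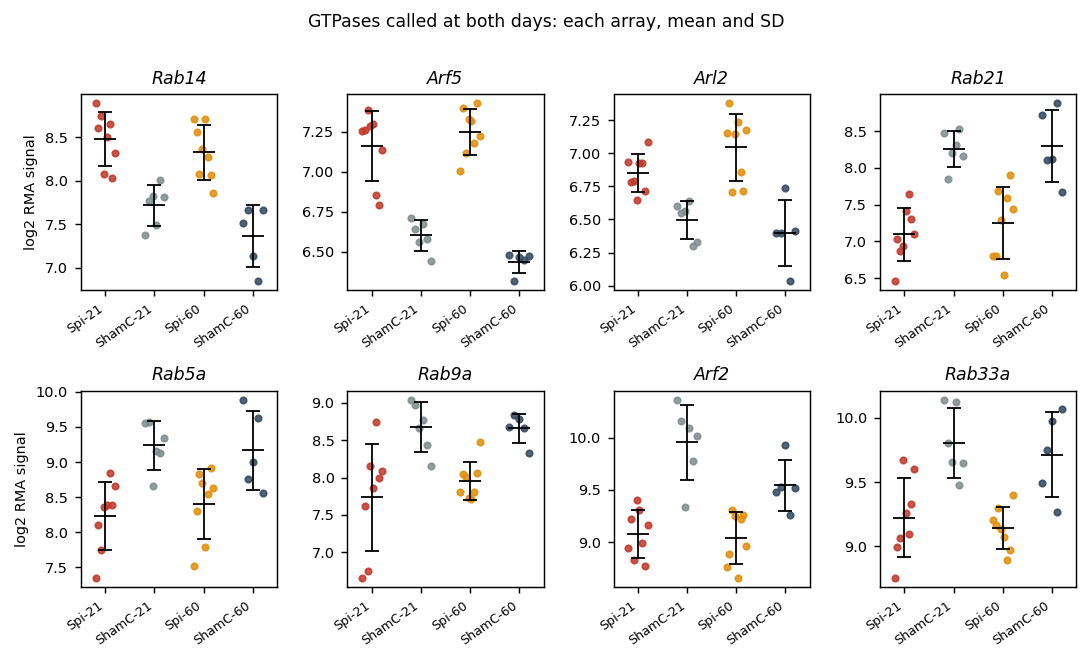
Log2 signal of every array for 8 of the 11 GTPases that passed at both days, in Spi-21, ShamC-21, Spi-60 and ShamC-60 arrays, with mean and SD. Points are arrays. Rab14 and Arf5 separate transected from sham arrays at both days, while Rab5a and Rab33a overlap at both.

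Among the 12 genes of the endoplasmic reticulum and Golgi, 2 were higher and 2 lower at 21 days (16.7% each, against 11.1% and 11.5% of all genes). At 60 days 1 was higher and 2 lower (8.33% and 16.7%, against 10.7% and 9.44%). Rab1b, which carries vesicles from the endoplasmic reticulum to the Golgi, lay at 8.23, 8.50 and 8.89 in Spi-21 arrays, against 8.10, 8.18 and 8.31 in ShamC-21 arrays, and at 8.33, 8.48 and 8.86 in Spi-60 arrays, against 7.82, 8.28, 8.20, 7.82 and 8.42 in ShamC-60 arrays. At 21 days 7 of 8 transected arrays exceeded all sham arrays, and at 60 days 5 of 8 did. It rose by 0.34 ± 0.112 at 21 days (limma adjusted p = 0.0283) and 0.43 ± 0.118 at 60 days (adjusted p = 0.0118). The first call ended without Spi-21 replicate 2 or 3 or ShamC-21 replicate 1, 2 or 6 (0.29 to 0.39), the other without ShamC-60 replicate 1 or 4 (0.36 to 0.51). The difference was 0.21 at 21 days without Spi-21 replicates 1 to 4 (adjusted p = 0.284) and 0.24 at 60 days without ShamC-60 replicates 1 and 4 (adjusted p = 0.293). Rab1a, which serves the same step, did not pass (−0.15 and 0.11).

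Rab33a, a Golgi-linked GTPase of axonal vesicles, lay at 8.76, 9.18 and 9.67 in Spi-21 arrays, against 9.48, 9.73 and 10.14 in ShamC-21 arrays, and at 8.89, 9.15 and 9.40 in Spi-60 arrays, against 9.50, 9.75, 9.98, 9.27 and 10.07 in ShamC-60 arrays. In each comparison 6 of 8 transected arrays lay below every sham array. The gene fell by 0.58 ± 0.142 (limma adjusted p = 0.0048) at 21 days and by 0.57 ± 0.15 (adjusted p = 0.00898) at 60 days, and no single array ended either call. Rab6b, the neuronal form of the Golgi GTPase Rab6, lay at 9.49, 10.16 and 10.79 in Spi-21 arrays, against 10.42, 10.81 and 11.14 in ShamC-21 arrays, with 7 of 8 transected arrays below every sham array. It fell by 0.65 ± 0.16 (adjusted p = 0.00506), and a second probe set fell too (−0.34, adjusted p = 0.0383). At 60 days the difference was −0.12 and did not pass.

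The Rab2 genes, which act between the Golgi and the endoplasmic reticulum, went apart. Rab2a fell at 60 days, with 7.73, 7.83 and 8.11 in Spi-60 arrays, against 8.48, 8.07, 8.18, 8.58 and 8.43 in ShamC-60 arrays (−0.48 ± 0.148, limma adjusted p = 0.0242). The call ended without ShamC-60 replicate 1 or 4 (−0.55 to −0.42 over the 27 fits), and the difference without both was −0.35 (adjusted p = 0.251). Rab2b rose at 21 days by its brightest probe set, with 10.35, 10.71 and 11.14 in Spi-21 arrays, against 10.09, 10.31 and 10.34 in ShamC-21 arrays (0.45 ± 0.147, adjusted p = 0.0279). Its second probe set fell (−0.50, adjusted p = 0.00371) and the mean of both differed by −0.024 (adjusted p = 0.904), so the direction of Rab2b is not settled. The call also ended without Spi-21 replicate 8 or ShamC-21 replicate 1 or 6 (0.39 to 0.50), and was 0.16 in Spi-21 replicates 1 to 4.

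Of the 5 genes of late endosomes, lysosomes and autophagosomes, 1 fell at both days (20% lower, against 11.5% of all genes at 21 days and 9.44% at 60 days). Rab9a, which returns receptors from late endosomes to the Golgi, lay at 6.66, 7.93 and 8.74 in Spi-21 arrays, against 8.16, 8.71 and 9.03 in ShamC-21 arrays, and at 7.71, 7.91 and 8.47 in Spi-60 arrays, against 8.67, 8.84, 8.78, 8.67 and 8.33 in ShamC-60 arrays. At each day 7 of 8 transected arrays lay below every sham array. It fell by 0.94 ± 0.227 (1.92-fold, limma adjusted p = 0.00477) at 21 days and by 0.70 ± 0.24 (1.63-fold, adjusted p = 0.039) at 60 days. Within the 21-day arrays the difference was −1.38 in Spi-21 replicates 1 to 4 and −0.50 in replicates 5 to 8 (adjusted p = 0.0734), and the 60-day call ended in 9 of 27 fits that left out 1 array (Spi-60 replicates 1, 2, 4, 5 and 6, ShamC-60 replicates 1, 2, 3 and 4, with −0.79 to −0.66 over the 27) and without ShamC-60 replicates 1 and 4 (−0.69, adjusted p = 0.166). Rab7a, the central GTPase of late endosomes and of retrograde axonal carriers, had 9.04, 9.62 and 9.96 in Spi-21 arrays, against 9.72, 9.81 and 10.03 in ShamC-21 arrays, and did not pass (−0.27 and 0.19).

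Among the 6 genes of regulated secretion, 2 fell at each day (33.3%, against 11.5% of all genes at 21 days and 9.44% at 60 days). None rose, against 11.1% and 10.7% of all genes. Rab3d, a secretory vesicle GTPase, lay at 6.66, 7.15 and 7.57 in Spi-60 arrays, against 7.54, 7.88, 7.70, 7.53 and 8.12 in ShamC-60 arrays, with 6 of 8 transected arrays below every sham array. The difference was −0.55 ± 0.146 (limma adjusted p = 0.00973), and at 21 days it was −0.38 ± 0.139 (adjusted p = 0.0477), a call that ended in 15 of the 27 fits (−0.42 to −0.31) and with either set of 4 Spi-21 arrays (−0.30 without replicates 5 to 8, −0.46 without replicates 1 to 4). Rab3c, a synaptic vesicle GTPase, fell at 21 days (−0.42 ± 0.137, adjusted p = 0.0287), with 6 of 8 transected arrays below every sham array and 1 above them all. That call ended in 6 of the 27 fits (Spi-21 replicates 2 and 3, ShamC-21 replicates 1, 2, 3 and 5, with −0.52 to −0.37 over the 27), and the difference was −0.25 without Spi-21 replicates 1 to 4 (adjusted p = 0.327). Rab3a, the main synaptic vesicle form, lay at 6.13, 6.53 and 6.68 in Spi-21 arrays, against 6.11, 6.32 and 6.45 in ShamC-21 arrays, and did not pass (0.18 and 0.12).

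Rab26, linked to secretory granules and to the capture of synaptic vesicles by autophagosomes, passed at 60 days. It lay at 5.68, 5.88 and 6.38 in Spi-60 arrays, against 6.67, 6.70, 6.56, 7.60 and 6.54 in ShamC-60 arrays. The groups did not overlap, which in the lower direction held for 3.6% of all genes at 60 days, and ShamC-60 replicate 4 was far above the other sham arrays. Rab26 fell by 0.82 ± 0.197 (1.76-fold, limma adjusted p = 0.00484), with −0.62 without that array (adjusted p = 0.03) and −0.60 without it and replicate 1 (adjusted p = 0.0866). At 21 days the difference was −0.33 and did not pass. Neither Rab27a (0.07 and 0.01) nor Rab27b (−0.03 and 0.02), which dock secretory vesicles, passed.

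**Figure D3:**
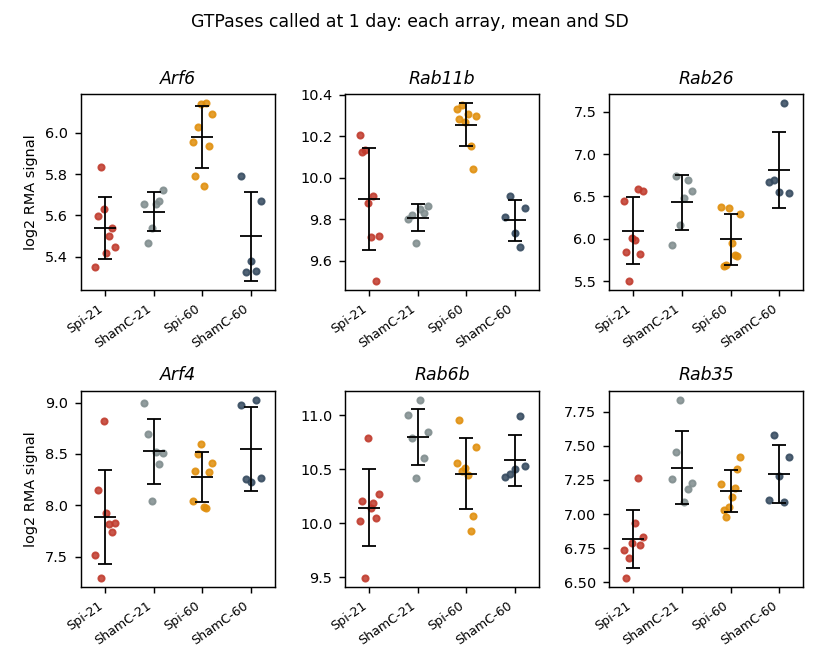
Log2 signal of every array for 6 GTPases that passed at 1 of the days, in Spi-21, ShamC-21, Spi-60 and ShamC-60 arrays, with mean and SD. Rab11b does not overlap between Spi-60 and ShamC-60 arrays, and the highest ShamC-60 point of Rab26, 7.60, is replicate 4.

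The Arf genes split. Arf5, a class II Arf of the early secretory pathway, was the only Arf higher at both days. It lay at 6.79, 7.26 and 7.39 in Spi-21 arrays, against 6.45, 6.61 and 6.71 in ShamC-21 arrays, and at 7.01, 7.27 and 7.43 in Spi-60 arrays, against 6.48, 6.32, 6.47, 6.45 and 6.48 in ShamC-60 arrays. Transected and sham arrays did not overlap at either day. Arf5 rose by 0.56 ± 0.091 (1.47-fold, limma adjusted p = 0.000162) at 21 days and by 0.81 ± 0.0961 (1.75-fold, adjusted p = 2.2e-06) at 60 days, and no array or pair of doubted arrays ended a call. With the beta-actin covariate neither call passed (0.39 at 21 days, limma adjusted p = 0.133, and 0.62 at 60 days, adjusted p = 0.0554). Arf4, the other class II Arf, lay at 7.30, 7.82 and 8.82 in Spi-21 arrays, against 8.04, 8.51 and 9.0 in ShamC-21 arrays. It fell at 21 days (−0.64 ± 0.186, adjusted p = 0.0154), a call that ended without ShamC-21 replicate 1 (−0.77 to −0.54 over the 27 fits) or without Spi-21 replicates 5 to 8 (−0.58, adjusted p = 0.0671), and did not pass at 60 days (−0.28).

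Arf2, a class I Arf that forms coats on the Golgi, lay at 8.77, 9.08 and 9.41 in Spi-21 arrays, against 9.34, 10.05 and 10.36 in ShamC-21 arrays, and at 8.66, 9.09 and 9.31 in Spi-60 arrays, against 9.48, 9.52, 9.93, 9.26 and 9.52 in ShamC-60 arrays. Only 1 transected array reached into the sham range at each day. The gene fell by 0.88 ± 0.143 (1.84-fold, limma adjusted p = 0.000153) at 21 days and by 0.50 ± 0.151 (1.42-fold, adjusted p = 0.0203) at 60 days. The 60-day call ended without ShamC-60 replicate 3 (−0.57 to −0.41 over the 27 fits). A second and dimmer Arf2 probe set did not pass and had positive differences (0.11 at 21 days and 0.19 at 60 days). The mean of the Arf2 probe sets did not pass at 60 days (−0.15, limma adjusted p = 0.289). Arf1, the founding class I Arf, was at 8.84, 9.36 and 9.58 in Spi-21 arrays, against 9.29, 9.54 and 9.58 in ShamC-21 arrays, and did not pass (−0.19 and 0.23), nor did Arf3 (−0.02 and 0.22).

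Arf6, which works at the plasma membrane in endocytosis and the actin cortex, rose at 60 days. It lay at 5.74, 5.99 and 6.14 in Spi-60 arrays, against 5.79, 5.33, 5.38, 5.33 and 5.67 in ShamC-60 arrays, and 7 of 8 transected arrays lay above every sham array. The difference was 0.48 ± 0.0963 (1.39-fold, limma adjusted p = 0.00112), against −0.08 ± 0.0913 at 21 days (adjusted p = 0.567), where the arrays spanned 5.35 to 5.84 in Spi-21 and 5.47 to 5.72 in ShamC-21.

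Of the 6 Arl genes, 2 were higher and 1 lower at 21 days (33.3% and 16.7%, against 11.1% and 11.5% of all genes). At 60 days 1 was higher and 0 lower (16.7% and 0%, against 10.7% and 9.44%). Arl2, which regulates tubulin folding and microtubules, lay at 6.65, 6.86 and 7.08 in Spi-21 arrays, against 6.30, 6.56 and 6.64 in ShamC-21 arrays, and at 6.71, 7.15 and 7.38 in Spi-60 arrays, against 6.40, 6.40, 6.74, 6.04 and 6.41 in ShamC-60 arrays. The arrays separated at 21 days, and at 60 days 6 of 8 transected arrays lay above every sham array. Arl2 rose by 0.35 ± 0.112 (limma adjusted p = 0.024) at 21 days and by 0.65 ± 0.118 (1.57-fold, adjusted p = 0.00042) at 60 days. The first call ended without ShamC-21 replicate 5 or 6 (0.31 to 0.38 over the 27 fits) and with either set of 4 Spi-21 arrays, where the difference was 0.42 without replicates 1 to 4 (adjusted p = 0.0545) and 0.29 without replicates 5 to 8 (adjusted p = 0.105).

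Arl1, which recruits tethering golgins to the trans-Golgi, lay at 5.70, 6.55 and 7.36 in Spi-21 arrays, against 6.85, 7.11 and 7.37 in ShamC-21 arrays, and 7 of 8 transected arrays lay below every sham array. It fell by 0.64 ± 0.168 (limma adjusted p = 0.00795), with −1.02 in Spi-21 replicates 1 to 4 and −0.27 in replicates 5 to 8 (adjusted p = 0.227). At 60 days it had a difference of −0.43 ± 0.178 (adjusted p = 0.0873). Arl9 rose at 21 days by 0.59 ± 0.151 (adjusted p = 0.00642), with 7 of 8 transected arrays above every sham array, and had a difference of 0.50 without Spi-21 replicates 1 to 4 (adjusted p = 0.053). The ciliary Arl6 (−0.63 and −0.53), and Arl3 and Arl11, did not pass.

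Outside these groups, Rab28 did not pass and Rab40b had the lowest difference at 60 days, −1.51 ± 0.562, without passing (limma adjusted p = 0.0589). Signals of Rab40b were 4.44, 5.27 and 5.66 in Spi-60 arrays, against 6.11, 5.69, 5.48, 11.10 and 5.28 in ShamC-60 arrays. The high value is ShamC-60 replicate 4, the array with low motor neuron markers, and the other sham arrays overlapped the transected ones.

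Between closely related genes, the difference within each array was tested for 28 paralog pairs at both days by a two-sided exact permutation test over arrays, adjusted over the 56 tests. The test was chosen after the values of the single genes had been seen. The pairs include every combination of the 6 Arf genes, and a pair with 1 called gene can pass. Changes are therefore given for single pairs, and not all 28 are listed. Rab5a minus Rab5c changed by −1.12 (exact permutation, adjusted p = 0.00699) at 21 days and −0.97 (adjusted p = 0.00363) at 60 days, and Rab5a minus Rab5b by −0.87 (adjusted p = 0.00699) and −1.04 (adjusted p = 0.0158). Arf2 minus Arf5 changed by −1.43 and −1.31 (exact permutation, adjusted p = 0.00363 each), the largest of the pair differences at both days. In these pairs Rab5a or Arf2 fell relative to its partner at both days by its brightest probe set. The dimmer Rab5a probe set did not pass at either day, and the dimmer Arf2 probe set had positive differences that did not pass. These changes thus rest on the probe sets used.

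Arf1 minus Arf2 changed by 0.69 (exact permutation, adjusted p = 0.00363) at 21 days and 0.74 (adjusted p = 0.0124) at 60 days, which also rests on the Arf2 probe set used. Rab3a minus Rab3d changed by 0.56 (adjusted p = 0.0243) and 0.67 (adjusted p = 0.00363), and Rab6a minus Rab6b by 0.59 at 21 days (adjusted p = 0.00829) and 0.30 at 60 days (adjusted p = 0.193). Rab2a minus Rab2b changed by −0.77 and −0.70 (adjusted p = 0.0087 each), which rests on the Rab2b probe set used. Rab1a minus Rab1b changed by −0.49 at 21 days (adjusted p = 0.0265) and −0.32 at 60 days (adjusted p = 0.256). Rab4a minus Rab4b changed by −0.42 and −0.31 and did not pass at either day (adjusted p = 0.121 and 0.145). Other pairs that did not pass at either day included Rab8a and Rab8b, Rab11a and Rab11b, Rab27a and Rab27b, and Arf1 and Arf3. The smallest p that the arrays allow is 0.000333 at 21 days and 0.000777 at 60 days.

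**Figure D4:**
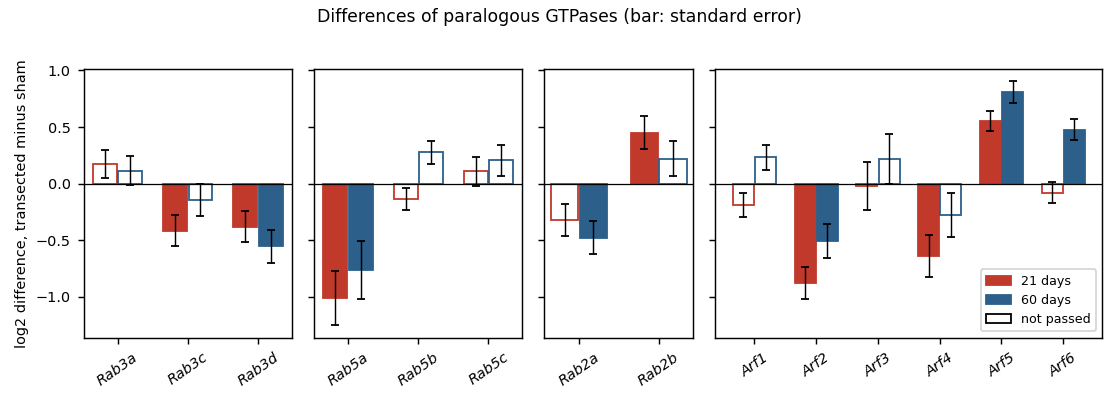
Log2 difference of transected minus sham arrays for the Rab3, Rab5, Rab2 and Arf paralogs at 21 days (red) and 60 days (blue), with the standard error of the limma fit. Filled bars passed. Rab5a alone fell within its family, and the 6 Arf genes include Arf5 above 0 and Arf2 below 0 at both days.

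The difference between the days was tested directly. The 60-day effect minus the 21-day effect passed for 0 of the 53 GTPases in limma, and for 0% of all genes, with 6 GTPases at an unadjusted p under 0.05. The smallest p-values belonged to Arf6 (0.56 ± 0.133, adjusted p = 0.549), Rab5b (0.42, adjusted p = 0.627) and Rab11b (0.37, adjusted p = 0.647) in the positive direction, and to Rab26 (−0.48, adjusted p = 0.761), Arl9 (−0.31) and Rab28 (−0.19) in the negative direction. Of the 53 GTPases, 39 had the same sign at both days and 35 had a higher difference at 60 days. The 10 genes that passed at 21 days only and the 4 that passed at 60 days only are thus not shown to differ between the days.

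**Figure D5:**
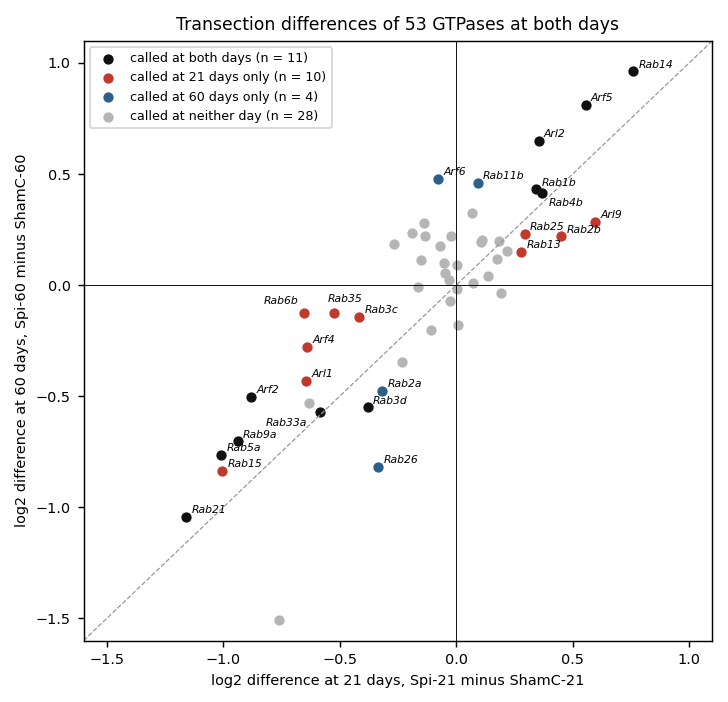
Log2 difference at 60 days (vertical) against that at 21 days (horizontal) for the 53 GTPases, each a point, with the line of equal differences dashed. Black points passed at both days (11), red at 21 days only (10), blue at 60 days only (4) and grey at neither (28), and no coloured point lies in the lower right quadrant.

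Between Spi-60 and Spi-21 arrays 1 GTPase passed, against 0.0921% of all genes (0.0512% higher and 0.0409% lower). Arf6 lay at 5.74, 5.99 and 6.14 in Spi-60 arrays, against 5.35, 5.52 and 5.84 in Spi-21 arrays, and was higher by 0.44 ± 0.0845 (limma adjusted p = 0.0436), with 6 of 8 arrays above every Spi-21 array. The call ended in 17 of 27 fits that left out 1 array (0.41 to 0.48). The genes nearest to passing in the other direction were Arl9 (−0.29), Rab2b (−0.26) and Rab27a (−0.14). Between ShamC-60 and ShamC-21 arrays 0 of 53 passed (0% of all genes, and 1 GTPase at an unadjusted p under 0.05, Arf2 with −0.41 ± 0.16, adjusted p = 0.999).

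Of the 13 partner proteins, 1 was higher and 2 lower at 21 days (7.69% and 15.4%, against 11.1% and 11.5% of all genes). At 60 days 2 were higher and 0 lower (15.4% and 0%, against 10.7% and 9.44%), and nothing is read from these counts. Rab11fip2, which links Rab11 vesicles to myosin V, lay at 6.89, 7.06 and 7.36 in Spi-21 arrays, against 6.62, 6.72 and 6.76 in ShamC-21 arrays, and at 6.88, 7.02 and 7.21 in Spi-60 arrays, against 6.59, 6.83, 6.77, 6.55 and 6.81 in ShamC-60 arrays. Transected and sham arrays overlapped at neither day. It rose by 0.41 ± 0.0841 (limma adjusted p = 0.00147) and by 0.34 ± 0.0888 (adjusted p = 0.00851). Rab11fip3, which binds Rab11 and Arf6 together, lay at 4.97, 6.40 and 6.71 in Spi-21 arrays, against 7.23, 7.37 and 7.71 in ShamC-21 arrays, again with no overlap. It fell by 1.16 ± 0.185 (2.24-fold, adjusted p = 0.00012) at 21 days, and its difference at 60 days was −0.43 ± 0.195 (adjusted p = 0.12). Rab5if fell at 21 days (−0.46, adjusted p = 0.0122, and −0.32 with adjusted p = 0.106 without Spi-21 replicates 1 to 4), and Rab3il1, an exchange factor, rose at 60 days (0.32, adjusted p = 0.0176). Without ShamC-60 replicates 1 and 4 the 60-day differences were 0.25 for Rab11fip2 (adjusted p = 0.168) and 0.31 for Rab3il1 (adjusted p = 0.105).

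The regulators and effectors of these GTPases were read from 7 lists with 108 measured genes of 197 named, of which 13 were higher and 20 lower at 21 days (12.04% and 18.5%, against 11.1% and 11.5% of all genes), and 14 higher and 13 lower at 60 days (13.0% and 12.04%, against 10.7% and 9.44%). Most of these shares are near those of all genes, and nothing is read from the counts of single lists. The lists also hold partner proteins described above, among them Rab11fip2, Rab11fip3 and Rab3il1, whose calls are counted in both places. Of 17 GTPase-activating proteins of Rabs, which switch them off, 1 was higher and 6 lower at 21 days (5.88% and 35.3%). At 60 days 3 were higher and 2 lower (17.6% and 11.8%). Tbc1d15, which acts on Rab7, fell at both days (−1.11 and −1.32, limma adjusted p = 0.00711 and 0.00321), and Evi5 (−0.86, adjusted p = 0.00378) and Tbc1d14 (−0.82, adjusted p = 0.0031) fell at 21 days. Evi5l rose at both (0.46 and 0.80, adjusted p = 0.0096 and 0.000145). Of 20 Rab exchange factors, which switch Rabs on, 1 was higher and 2 lower at 21 days (5% and 10%). At 60 days 2 were higher and 1 lower (10% and 5%). In the Rab7 exchange complex, Mon1a rose at both days (0.44 and 0.65), Ccz1 fell at 21 days (−0.31, limma adjusted p = 0.0395) and Mon1b did not pass, and Trappc10 of the TRAPP complex fell at both (−0.87 and −0.46).

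Among 4 genes of Rab prenylation and membrane extraction, Rabac1, a receptor for prenylated Rabs, rose by 0.41 at 21 days and 0.96 at 60 days (limma adjusted p = 0.0107 and 4.19e-06). Gdi2, which takes GDP-bound Rabs off membranes, fell by 0.40 at 21 days, and Rabggtb, a subunit of the enzyme that prenylates Rabs, fell by 0.59 at 60 days. Of 26 Rab effectors 5 were higher and 7 lower at 21 days (19.2% and 26.9%, against 11.1% and 11.5% of all genes). At 60 days 3 were higher and 5 lower (11.5% and 19.2%, against 10.7% and 9.44%). The dynein adaptor Bicd2 (−0.72 and −0.54) and the phosphatase Ocrl (−0.61 and −0.86) fell at both days, with adjusted p from 4.61e-05 to 0.00567.

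For the Arf side, 1 of 8 exchange factors was higher and 1 lower at each day (12.5% each). Of all genes, 11.1% were higher and 11.5% lower at 21 days, and 10.7% and 9.44% at 60 days. Gbf1, which activates Arfs at the Golgi, rose by 0.43 at 21 days (limma adjusted p = 0.00416), Iqsec3, a synaptic exchange factor, rose by 0.50 at 60 days (adjusted p = 0.0208), and Fbxo8 fell at both (−0.96 and −0.94). Of 12 Arf GTPase-activating proteins, 2 were higher and 1 lower at 21 days (16.7% and 8.33%). At 60 days 2 were higher and 2 lower (16.7% each). Adap1 rose (0.49 and 0.69) and Asap1 fell (−0.84 and −0.71) at both days. Of 21 Arf and Arl effectors 2 were higher and 2 lower at 21 days (9.52% each). At 60 days 2 were higher and 1 lower (9.52% and 4.76%). Of the measured subunits of the COPI coat, which Arf1 recruits, Cope rose by 0.89 and 0.90 (limma adjusted p = 0.00188 and 0.00264), Copg1 fell at 21 days (−0.49, adjusted p = 0.00628), and Copa, Copb1 and Arcn1 did not pass. Arfip2, which binds Arf and Arl proteins, rose by 0.31 and 0.47.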

How the data were processed

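Per the submitters' processing notes the deposited values are log2 signals made by the authors with RMA, which corrects background, normalizes arrays and summarises probe sets. Its version is not given in the sources used here. As a file, the deposited table held 12919 probe sets of an Affymetrix rat array with values from 0 to 14.6 and array medians from 6.31 to 6.41. Of 351 array pairs, 0 held identical values. Per the labels, RNA was amplified in 2 rounds. Arrays have no count depth, and the number of arrays limits precision.

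All 27 arrays in 4 groups were fitted together with limma 3.58.1 in R 4.3.3 (lmFit and eBayes, no covariate, two-sided) after 6 control probe sets were removed, without a filter on signal. Gene names came from the platform annotation. Symbols of the form Rab, Arf or Arl, digits, an optional letter and an optional paralog number were counted as GTPases, except Rab3il1, which the pathway lists hold as an exchange factor. Genes given with full statistics are the GTPases with the largest differences past the threshold, up to 8 per direction at each day and up to 5 in the other comparisons, the 3 with the smallest p per direction where none passed, and a fixed set (Rab1a, Rab3a, Rab5a, Rab7a, Rab11a, Arf1, Arf6, and Arl8b, which no single-symbol probe set measured here). Rab40b, the other probe sets and the partner proteins were added to these after their values had been seen. Members, lists and tests were chosen with earlier results of these data known. Quality measures, marker means and paralog differences were compared by exact permutation in Python 3.11.15 with numpy 2.4.6 and pandas 2.3.3, and plotted with matplotlib 3.10.9. The fit was first tested on simulated data. No label says that replicate numbers pair the samples. Deviations of 35 same-number array pairs correlated between −0.309 and 0.331, with 9 over 0.1, and pairs of unlike numbers were not compared. Alternatives were array weights, a replicate block, omission of arrays, marker and quality covariates, other normalizations, a signal filter, another variance prior and other probe sets.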

Additional observations from a re-analysis of the deposited data

Results flagged for a closer look

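Of 140 groups of arrays (35 genes in 4 groups), 11 held 1 array farther from the rest than Dixon's test allows, which chance gives in about 1 of 20 groups. ShamC-60 replicate 4 accounts for 4 of them: it was highest for Rab40b at 11.10 (next 6.11), for Rab26 at 7.60 (next 6.70) and for Rab6b at 10.996 (next 10.53), and lowest for Rab11a at 9.79 (next 10.67). The same array had the low motor neuron marker mean of 8.74, whose part in these values was not tested. Spi-60 replicate 8 was highest for Rab15 at 8.42 (next 7.31) and for Rab9a at 8.47 (next 8.06). Spi-60 replicate 2 was highest for Rab3c at 7.32 (next 6.90). Spi-21 replicate 1 was lowest for Rab11fip3 at 4.97 (next 5.94). In the other sham arrays, replicate 2 of ShamC-60 was lowest for Arf5 at 6.32 (next 6.45), replicate 3 of ShamC-21 for Rab11b at 9.68 (next 9.80) and replicate 6 of ShamC-21 for Rab2b at 10.09 (next 10.28).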

How the results depend on the processing

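Leaving out 1 array in turn, the 9 GTPases higher at 21 days became 4 to 9 (4 without ShamC-21 replicate 6, 5 without replicate 1) and the 12 lower became 8 to 14. At 60 days the 7 higher became 5 to 8 and the 8 lower became 5 to 9 (5 without ShamC-60 replicate 4). The Spi-60 against Spi-21 count of 1 became 0 to 3. Without Spi-21 replicates 1 to 4 the counts were 3 higher and 6 lower at 21 days, 2 higher for the difference between days, and 4 higher and 1 lower for Spi-60 against Spi-21. Without ShamC-60 replicates 1 and 4, 3 were lower at 60 days. With the beta-actin covariate 1 was higher and 1 lower at 21 days and 0 either way at 60 days. Restricted to probe sets above the median signal (37 GTPases), 5 were higher at 21 days. Array weights gave 1 higher for the difference between days. The shares of all genes that passed in these settings are not given here, so nothing particular to the GTPases is read from these counts. The call of Arf6 in Spi-60 against Spi-21 ended (0 genes) with array weights, without Spi-21 replicates 5 to 8, with only the 2 groups, with the glial or beta-actin covariate, with median centring and above the median signal.

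The replicate block used numbers that no label says pair the samples (median correlation −0.00769). It ended the calls of Rab13 (0.24, limma adjusted p = 0.0514), Rab2b (0.42, adjusted p = 0.0572) and Rab3d (−0.33, adjusted p = 0.056) at 21 days, Rab2a (−0.42, adjusted p = 0.0596) at 60 days and Arf6 between the days (0.44, adjusted p = 0.0541, a count of 0). Opposite directions came from other probe sets of Arf2 (0.11 at 21 days, 0.19 at 60 days), Rab15 (0.10 and 0.20) and Rab2b (−0.50) and from the mean of the Rab2b probe sets (−0.024). Of the other gene-level values, 628 kept direction and side of the threshold and 84 lost and 12 gained the call, and with 1 array left out 1388 kept, 93 lost and 4 gained it. The causes were not tested. Arl9 and Arf6 were dim, with means of 5.20 and 5.68 and 5.83% and 21.1% of genes dimmer.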

Other observations

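Some GTPases that did not pass by their brightest probe set passed by another at 21 days. Rab27a, which docks secretory granules, rose by 0.43 ± 0.122 in a probe set with a mean of 5.42 (limma adjusted p = 0.0134), while another of its probe sets differed by −0.60 (adjusted p = 0.0704). Rab34, a Golgi and ciliary GTPase, rose by 0.28 ± 0.0907 in its second probe set (adjusted p = 0.027), against 0.19 in the brightest. For Rab1b, 2 of 3 further probe sets rose at 60 days (0.50 and 0.41, adjusted p = 0.0129 and 0.0043), in the direction of the brightest. At 21 days, where the brightest passed, none of the 3 did (0.11, 0.29 and 0.20). The second probe set of Rab40b had a difference of 0.29 at 60 days (adjusted p = 0.111), against −1.51 in the brightest.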
